A study of Mus musculus with 16 samples.

Results

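The E2F transcription factors and the pocket proteins were followed through their transcripts, *E2f1* to *E2f8*, *Rb1* and *Rbl1*. These are 10 of the 18990 genes in the deposited table, and all 10 were found. They were chosen by gene symbol, with earlier results of these data known. All 10 also passed the filter on low values, a mean log2 CPM (read counts scaled to equal library size) of at least 0 over the 16 libraries, which left 14028 genes to test. The libraries are bulk RNA sequencing of wild-type BL6 mouse embryonic fibroblasts (MEFs), used for reprogramming at passage 2. Every group, the control included, carried lentiviruses with the doxycycline-inducible tet-STEMCCA cassette of the reprogramming factors OSKM (Oct4, Sox2, Klf4 and c-Myc) and with its activator rtTA. All cells received 40 nM of pooled siRNAs, and later 2 µg/mL doxycycline with 3 µM chiron, 0.25 µM Alk5i, 50 µg/mL ascorbic acid and LIF. The siRNA was a non-targeting control (nt) or was directed against *Wdr5* (siWdr5), *Brca1* (siBrca1) or *Bard1* (siBard1). RNA was taken on day 3 and again on day 6, and each group has 2 libraries, made from independent experiments. Since these are whole cultures, fewer cells of a kind and less RNA per cell cannot be told apart.

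E2F factors set the timing of DNA replication. E2F1, E2F2 and E2F3 are known as activators of genes for S phase, while E2F4 and E2F5 mostly act as repressors together with pocket proteins. E2F6 does not bind pocket proteins and represses with a polycomb complex, and E2F7 and E2F8, which bind DNA without a DP partner, rise in S phase and repress E2F targets. The pocket proteins pRB (*Rb1*) and p107 (*Rbl1*) hold E2F factors until cyclin-dependent kinases phosphorylate them, the step that lets a fibroblast pass from G1 into S phase.

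The libraries held 11169738 to 26832534 reads, and a gene with 3 reads stood at 0.115 to 0.260 CPM. At day 3 the targeted transcripts were lower in both libraries of their own knockdown than in both nt libraries. *Wdr5* stood at 50.6 and 55.3 CPM against 132 and 130 CPM, *Brca1* at 37.5 and 19.4 against 82.4 and 77.98 CPM and *Bard1* at 18.01 and 20.8 against 30.5 and 29.1 CPM. In siBrca1, replicate 2 held 274 *Brca1* reads and replicate 1 held 506, and this replicate 2 also stood apart for several of the genes below. At day 6 *Brca1* no longer differed in siBrca1 (log2-fold change 0.01, adjusted p = 0.988), and the test was also missed by *Wdr5* in siWdr5 (−0.27, adjusted p = 0.189) and by *Bard1* in siBard1 (0.11, adjusted p = 0.853). All 10 fibroblast markers were present in every library. Their summed level at day 3 was 7761 to 8753 CPM in nt, 13711 to 14255 CPM in siWdr5, 11581 to 12724 CPM in siBrca1 and 9664 to 11255 CPM in siBard1. Of the 10, 9 were higher in siWdr5, 6 were higher and 1 lower in siBrca1, and 1 was higher and 1 lower in siBard1. Of all genes, 18.3% were higher in siWdr5, 25.4% higher and 21.8% lower in siBrca1, and 8.67% higher and 5.87% lower in siBard1. The siBard1 counts are near these shares. Epithelial markers summed to 44.4 to 66.7 CPM in nt, 20.7 to 21.1 CPM in siWdr5, 22.3 to 36.5 CPM in siBrca1 and 38.04 to 45.3 CPM in siBard1 at day 3. Pluripotency markers summed to 7.92 to 9.98 CPM, 1.88 to 2.55 CPM, 3.42 to 4.22 CPM and 4.01 to 4.54 CPM in the same order. Macrophage markers, of which 4 of 5 were in the table, summed at day 3 to 7.05 to 7.999 CPM in nt, 11.8 to 14.0 CPM in siWdr5, 16.2 to 17.2 CPM in siBrca1 and 7.92 to 8.68 CPM in siBard1. In siBrca1, 2 of the 3 tested were higher, beside 25.4% of all genes. Endothelial markers summed to 1.35 to 3.28 CPM over all 16 libraries. The part of these shifts in the results below was not tested.

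Among the members, *E2f2*, *E2f6*, *E2f7* and *E2f8* are those whose change in siBrca1 at day 3 kept an adjusted p under 0.05 in the fit reported here and in all 12 alternatives that refit the data (the threshold on the size of the change, a log2-fold change past 1, is not among these and *E2f6* does not reach it). Their RefSeq promoter windows (build GRCm38.p6, 250 bases before to 50 after the start site, written 5′ to 3′ on the gene's strand) are shown for that reason. Those refits that leave out a library leave its group with 1 library, so they do not measure the spread within that group. Capitals mark 2 kinds of words, searched on both strands. E2F words are TTTCCCGC, TTTCGCGC, TTTGCCGC and TTTGGCGC, and the CHR word, an element bound by the MuvB complexes of G2 and M phase genes, is TTTGAA.
*E2f2*, chr4:136172024-136172323, plus strand: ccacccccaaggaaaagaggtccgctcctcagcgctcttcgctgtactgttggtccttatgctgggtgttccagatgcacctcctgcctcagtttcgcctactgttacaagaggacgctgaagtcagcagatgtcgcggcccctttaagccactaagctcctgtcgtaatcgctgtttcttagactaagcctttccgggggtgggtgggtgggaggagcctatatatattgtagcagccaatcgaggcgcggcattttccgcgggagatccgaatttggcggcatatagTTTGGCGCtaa
*E2f6*, chr12:16810715-16811014, plus strand: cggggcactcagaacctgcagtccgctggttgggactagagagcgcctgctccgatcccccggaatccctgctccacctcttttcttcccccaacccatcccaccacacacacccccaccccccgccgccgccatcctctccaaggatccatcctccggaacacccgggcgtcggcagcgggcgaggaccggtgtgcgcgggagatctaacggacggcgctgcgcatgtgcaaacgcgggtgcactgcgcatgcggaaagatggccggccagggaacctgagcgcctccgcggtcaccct
*E2f7*, chr10:110745189-110745488, plus strand: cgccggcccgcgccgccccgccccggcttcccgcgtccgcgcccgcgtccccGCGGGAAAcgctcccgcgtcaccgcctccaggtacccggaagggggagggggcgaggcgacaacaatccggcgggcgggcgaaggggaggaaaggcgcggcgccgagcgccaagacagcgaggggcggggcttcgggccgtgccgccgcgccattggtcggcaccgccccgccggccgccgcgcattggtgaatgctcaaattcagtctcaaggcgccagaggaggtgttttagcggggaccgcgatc
*E2f8*, chr7:48881547-48881846, minus strand: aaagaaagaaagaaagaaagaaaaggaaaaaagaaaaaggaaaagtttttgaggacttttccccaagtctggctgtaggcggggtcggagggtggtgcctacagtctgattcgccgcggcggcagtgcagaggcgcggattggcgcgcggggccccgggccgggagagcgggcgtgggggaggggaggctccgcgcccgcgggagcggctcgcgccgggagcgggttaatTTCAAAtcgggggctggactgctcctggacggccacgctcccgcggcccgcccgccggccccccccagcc

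RefSeq windows were matched for 7 of the 10 members, *E2f1*, *E2f2*, *E2f3*, *E2f6*, *E2f7*, *E2f8* and *Rbl1*, in 9 windows because *E2f2* and *E2f3* have 2 start sites each. An E2F word was found in 4 of these windows, compared with 2.265% of all 32851 promoters of the same length and 3.823% of the 13106 windows of tested genes. With positions counted from 0 at the start site, the *E2f2* word (TTTGGCGC) lies at 39 to 46 and the *E2f7* word (TTTCCCGC, on the opposite strand) at −198 to −191. In windows that are not printed, *Rbl1* has TTTCGCGC at −18 to −11 and the first *E2f3* start has TTTCCCGC at −11 to −4 on the opposite strand. The CHR word was found at −20 to −15 of *E2f8* (opposite strand), at −31 to −26 of the second *E2f2* start and at −23 to −18 of the first *E2f3* start, and is common, in 17.89% of all promoters and 11.8% of those of tested genes. No E2F word overlapped a CHR word, and the *E2f1* and *E2f6* windows and that of the second *E2f3* start hold neither. The *E2f1* window (chr2:154569377-154569676, minus strand) lies inside the gene as placed by GENCODE (chr2:154559407-154569892). The bases before the GENCODE start of *E2f1* were therefore not searched. A match describes the letters of the window and is no evidence of binding.

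**Figure D1:**
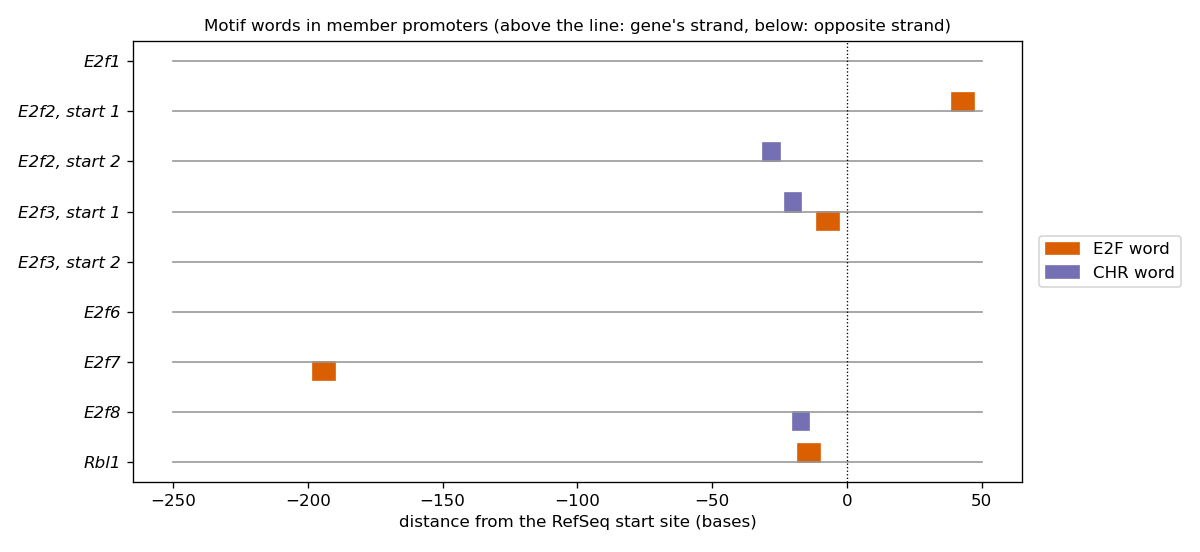
Position of E2F words and the CHR word in the 9 RefSeq promoter windows of 7 members, with the distance from the start site in bases on the x axis and 1 line per window. Boxes above a line are on the gene's strand and boxes below it on the opposite strand. The words of *E2f3*, *E2f8* and *Rbl1* lie between −23 and −4, and the *E2f7* word lies at −198 to −191.

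In GENCODE vM21 (mm10) the activators are *E2f1* (chr2:154559407-154569892), *E2f2* (chr4:136172394-136196057) and *E2f3* (chr13:29906575-29986063). *E2f4* lies at chr8:105297663-105305370, *E2f5* at chr3:14578641-14606309 and *E2f6* at chr12:16810963-16839742. *E2f7* is at chr10:110745439-110787384, *E2f8* at chr7:48866429-48881596, *Rb1* at chr14:73183673-73325822 and *Rbl1* at chr2:157145893-157204534. The RefSeq start sites of *E2f1* and *E2f2* and the second one of *E2f3* differ from these GENCODE gene starts, and that of *E2f6* differs slightly. Reads were summed over each gene, so the start sites of *E2f3* were not separated. Of the exon bases of *E2f8*, 11.2% are shared with Gm2788 on the opposite strand, and of those of *Rb1*, 8.11% with *Rcbtb2*, also on the opposite strand. Whether reads were counted by strand is not given in the sources used here, so reads from these stretches cannot be assigned to either gene.

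Per kilobase of exon, *E2f4* had the highest level of the 10 in nt at day 3, 27.5 ± 1.89 CPM per kb (SD, n = 2). *E2f1* (13.1 ± 0.963) and *E2f3* (12.4 ± 0.313) followed with overlapping libraries, then *Rb1* (9.87 ± 0.489), *E2f6* (8.27 ± 0.235) and *E2f5* (7.17 ± 1.22 CPM per kb). *E2f8* (3.74 ± 0.249) and *Rbl1* (3.60 ± 0.00911) overlapped, *E2f7* stood just under them at 3.46 ± 0.120, and *E2f2* was lowest at 1.80 ± 0.167 CPM per kb. The repressor that works with pocket proteins was thus the most abundant E2F transcript, and the least abundant was an activator. By day 6 *E2f4* was still highest (17.6 ± 0.843) and *E2f1* next (11.1 ± 0.764), while *E2f5* had moved to the third place (9.88 ± 0.0526). *E2f3* stood at 7.22 ± 0.00554, *E2f6* at 6.80 ± 0.373 and *Rb1* at 4.19 ± 0.517 CPM per kb. The lowest were *Rbl1* (2.03 ± 0.174) with *E2f8* (1.83 ± 0.245), which overlapped, and *E2f2* (1.49 ± 0.0957) with *E2f7* (1.28 ± 0.361), which also overlapped.

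**Figure D2:**
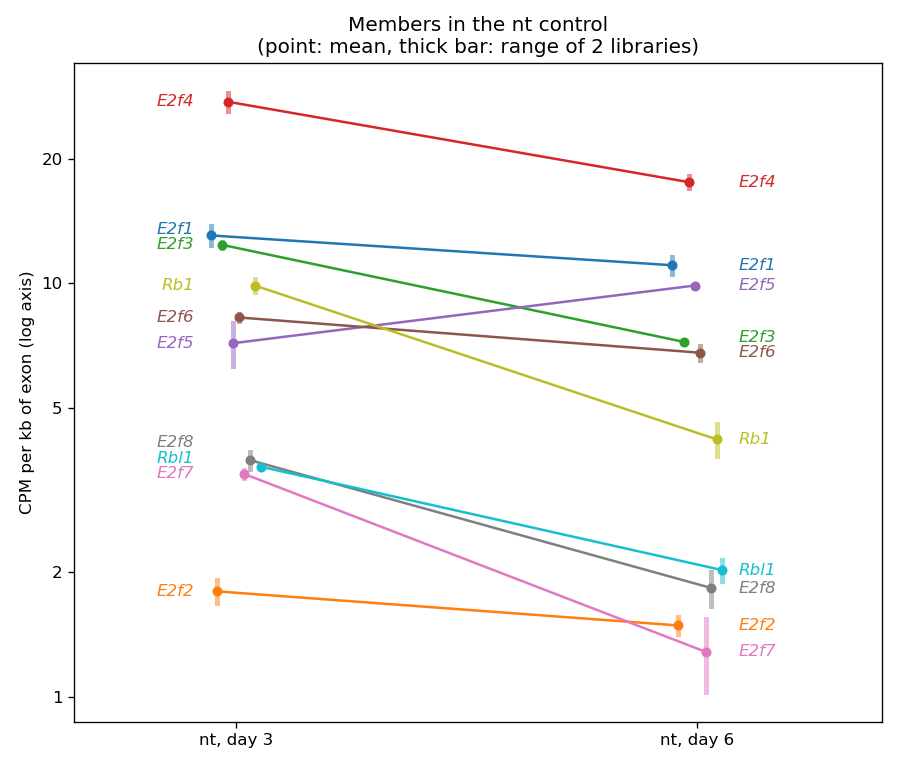
Level of the 10 members in nt at day 3 and day 6, in CPM per kb of exon on a log axis, with the mean as a point and the range of the 2 libraries as a thick bar. *E2f4* is highest on both days, *Rb1* goes from 9.87 to 4.19 CPM per kb, and *E2f5* is the member that goes up.

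As nt cells went from day 3 to day 6, 6 members fell and 1 rose, beside 46.2% of all genes tested that passed the test in either direction (27.1% lower and 19% higher). *Rb1* stood at 61.6 and 57.5 CPM in the nt libraries of day 3 and at 23.2 and 27.6 CPM at day 6. Its log2-fold change was −1.24 (SE 0.15, limma, adjusted p = 1.78e-05), and that of *Rbl1*, from 21.8 and 21.7 to 13.0 and 11.5 CPM, was −0.83 (SE 0.15, adjusted p = 0.000376). Both pocket protein transcripts among the members therefore fell, with no overlap between the days. The transcript of another pocket protein, p130 (*Rbl2*), is not a member and was not called (−0.37, limma, adjusted p = 0.0900). *E2f7* went from 30.5 and 32.1 to 9.41 and 14.0 CPM (−1.45, SE 0.28, adjusted p = 0.000615). *E2f8* went from 21.4 and 19.5 to 9.17 and 11.1 CPM (−1.02, SE 0.29, adjusted p = 0.00974), a call lost when replicate 1 of nt at either day was left out (adjusted p up to 0.0765). These repressors of S phase genes were both lower at day 6 in every library. *E2f3* went from 66.2 and 68.6 to 39.3 and 39.4 CPM (−0.78, adjusted p = 1.72e-05) and *E2f4* from 64.3 and 70.9 to 44.7 and 41.8 CPM (−0.64, adjusted p = 0.00259). *E2f5* was the 1 member that rose, from 14.4 and 11.4 to 17.8 and 17.7 CPM (0.47, SE 0.15, adjusted p = 0.0181). Its call was lost without nt replicate 2 of day 3 (0.30, adjusted p = 0.222) or without either nt library of day 6. The changes of *E2f1* (−0.24, adjusted p = 0.144), *E2f2* (−0.27, adjusted p = 0.351) and *E2f6* (−0.28, adjusted p = 0.112) did not pass the test. In 3 members, *E2f7*, *E2f8* and *Rb1*, the change was past 1 on the log2 scale, beside 11.8% of all genes. These 2 days differ in cell makeup as well: the 5 epithelial markers summed to 44.4 to 66.7 CPM at day 3 and to 517 to 690 CPM at day 6 in nt.

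At day 3 most members were at lower levels in the knockdowns than in nt, and *E2f6* was the exception. In siWdr5, 6 of the 10 members fell and none rose, where 35% of all genes passed the test (16.8% lower, 18.3% higher). With any 1 of the 4 libraries left out, 0 to 2 members were called in siWdr5. In siBrca1, 6 fell and 1 rose, where 47.2% passed (21.8% lower, 25.4% higher), and without siBrca1 replicate 2 the count of 7 was 4. In siBard1, 1 fell, where 14.5% passed (5.87% lower, 8.67% higher), and 0 were called with any 1 of the 4 libraries left out. The median log2-fold change of the members was −0.43, −0.40 and −0.30 in siWdr5, siBrca1 and siBard1, and that of all genes −0.04, 0.00216 and −0.02. The 3 comparisons share the nt libraries. The share of all genes whose libraries do not overlap between compared groups was not counted, so statements on such separation are descriptions. A change past 1 on the log2 scale was called for 1 member in siWdr5 (7.05% of all genes), for 3 in siBrca1 (13.4%) and for none in siBard1 (2.24%).

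**Figure D3:**
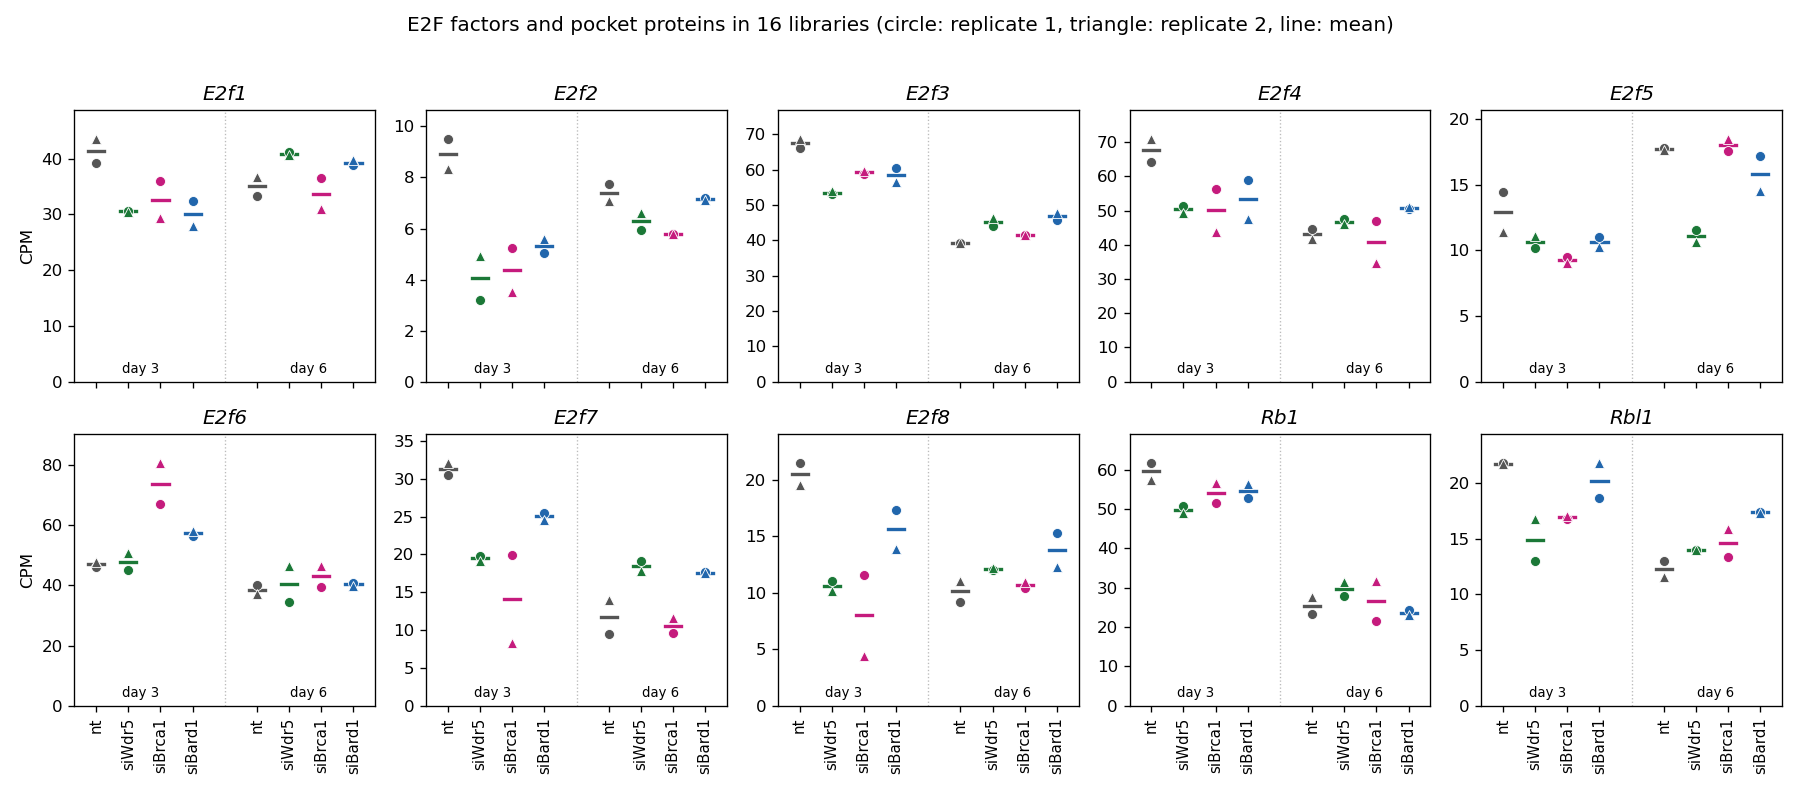
CPM of each member in all 16 libraries, with 1 panel per gene, groups on the x axis and CPM from 0 on the y axis. Circles are replicate 1, triangles replicate 2 and lines group means. At day 3 *E2f6* stands at 67.0 and 80.7 CPM in siBrca1 above all other groups, and *E2f7* and *E2f8* are lowest in siBrca1 replicate 2, at 8.23 and 4.43 CPM.

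Of the activators, *E2f1* stood at 39.2 and 43.5 CPM in nt at day 3 (replicates 1 and 2), 30.6 and 30.5 CPM in siWdr5, 35.9 and 29.4 CPM in siBrca1 and 32.3 and 27.8 CPM in siBard1. All 6 knockdown libraries lay under both nt libraries. In siWdr5 *E2f1* changed by −0.43 on the log2 scale (SE 0.13, adjusted p = 0.0213), with −0.35 for siBrca1 (SE 0.13, adjusted p = 0.0462) and −0.46 for siBard1 (SE 0.13, adjusted p = 0.0348). *E2f1* was the 1 member called in all 3 knockdowns, but each call was lost when certain single libraries were left out. In siWdr5 and siBard1 it was lost without any 1 of the 4 libraries compared (adjusted p up to 0.173 and 0.248), and in siBrca1 without either nt library or without siBrca1 replicate 2 (−0.20, adjusted p = 0.274). *E2f2*, the activator at the lowest level, stood at 9.50 and 8.35 CPM in nt, 3.18 and 4.91 CPM in siWdr5, 5.23 and 3.51 CPM in siBrca1 and 5.04 and 5.59 CPM in siBard1. The groups did not overlap with nt here either, and the fall was larger in scale than that of *E2f1*, with a log2-fold change of −1.17 in siWdr5 (SE 0.25, adjusted p = 0.00301) and −1.06 in siBrca1 (SE 0.25, adjusted p = 0.00349). Without siWdr5 replicate 1 the first of these was −0.86 and its call was lost (adjusted p = 0.0595). In siBard1 the change of −0.75 (SE 0.25) did not pass the test (adjusted p = 0.0607). *E2f3* stood at 66.2 and 68.6 CPM in nt, 53.0 and 54.0 CPM in siWdr5, 58.8 and 59.7 CPM in siBrca1 and 60.4 and 56.4 CPM in siBard1. It was called in siWdr5 (−0.33, SE 0.10, adjusted p = 0.0220), though not without any 1 of the 4 libraries (adjusted p up to 0.157), and not in siBrca1 (−0.19, adjusted p = 0.153) or siBard1 (−0.21, adjusted p = 0.186).

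Of the repressors that pair with pocket proteins, *E2f4* stood at 64.3 and 70.9 CPM in nt, 51.4 and 49.3 CPM in siWdr5, 56.3 and 43.7 CPM in siBrca1 and 59.0 and 47.6 CPM in siBard1, with every knockdown library under both nt libraries. In siWdr5 it changed by −0.42 (SE 0.14, adjusted p = 0.0299), with −0.44 for siBrca1 (SE 0.14, adjusted p = 0.0178) and −0.35 for siBard1 (SE 0.14, adjusted p = 0.104, not called). In siWdr5 the call was lost without any 1 of the 4 libraries (adjusted p up to 0.190), and in siBrca1 without nt replicate 2 (adjusted p up to 0.133) or siBrca1 replicate 2 (−0.26, adjusted p = 0.130). *E2f5* stood at 14.4 and 11.4 CPM in nt, 10.2 and 11.1 CPM in siWdr5, 9.50 and 9.07 CPM in siBrca1 and 11.0 and 10.3 CPM in siBard1. It was called in siBrca1 only among the 3 comparisons with nt (−0.47, SE 0.17, adjusted p = 0.0330), and not without nt replicate 1 (−0.29, adjusted p = 0.321) or siBrca1 replicate 2 (−0.43, adjusted p = 0.0782). The change was −0.27 in siWdr5 and in siBard1, short of the threshold in each (adjusted p = 0.226 and 0.289), and siBrca1 did not differ from them beyond the test (−0.20 against each, adjusted p = 0.458 and 0.427).

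*E2f6*, the E2F that represses without pocket proteins, was the 1 member that rose. It stood at 46.0 and 47.9 CPM in nt, 45.1 and 50.8 CPM in siWdr5, 67.0 and 80.7 CPM in siBrca1 and 56.6 and 58.1 CPM in siBard1. The libraries of siBrca1 were above all others, those of siBard1 were above nt and siWdr5, and those of siWdr5 spanned nt. The log2-fold change in siBrca1 was 0.65 (SE 0.12, adjusted p = 0.000574), a rise of 1.57-fold, and it was 0.51 without replicate 2. In siBard1 it was 0.29 (95% confidence interval 0.03 to 0.54, adjusted p = 0.114), and in siWdr5 0.03 (−0.23 to 0.28, adjusted p = 0.879). *E2f6* was also higher in siBrca1 than in siWdr5, by 0.62 (SE 0.12, adjusted p = 0.00361), although not without siWdr5 replicate 1 (adjusted p = 0.0728). It was higher than in siBard1 by 0.36 (SE 0.12, adjusted p = 0.0445), and this call was lost without siBrca1 replicate 2 (0.23, adjusted p = 0.269) or without either siBard1 library.

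The repressors of S phase genes, *E2f7* and *E2f8*, fell in siBrca1. *E2f7* stood at 30.5 and 32.1 CPM in nt, 19.8 and 19.2 CPM in siWdr5, 19.9 and 8.23 CPM in siBrca1 and 25.5 and 24.6 CPM in siBard1. *E2f8* stood at 21.4 and 19.5 CPM in nt, 11.0 and 10.2 CPM in siWdr5, 11.6 and 4.43 CPM in siBrca1 and 17.3 and 13.9 CPM in siBard1. For both genes all knockdown libraries were under nt, and in siBrca1 replicate 1 was at the level of siWdr5 while replicate 2 was far under it. The log2-fold change in siBrca1 was −1.29 for *E2f7* (SE 0.27, adjusted p = 0.00155) and −1.52 for *E2f8* (SE 0.31, adjusted p = 0.00117). A refit without replicate 2, which leaves siBrca1 with 1 library and takes the spread from the other groups, gave −0.65 and −0.82. The size of the change thus depended on this library. *E2f2* was at −0.77 without it. In siWdr5 *E2f8* fell (−0.95, SE 0.31, adjusted p = 0.0275), with the call lost without any 1 of the 4 libraries (adjusted p up to 0.154), and *E2f7* did not pass (−0.68, SE 0.27, adjusted p = 0.0652). In siBard1 neither *E2f7* (−0.32, adjusted p = 0.448) nor *E2f8* (−0.40, adjusted p = 0.399) passed. All groups of a day share 1 SE per gene in these fits, so the spread within siBrca1 enters the tests of siWdr5 and siBard1 too. For both genes siBrca1 had the libraries that lay furthest apart. A missed test here therefore does not show that the gene was unchanged.

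Of the pocket proteins, *Rb1* was not called in any knockdown at day 3. It stood at 61.6 and 57.5 CPM in nt, 50.8 and 48.8 CPM in siWdr5, 51.5 and 56.5 CPM in siBrca1 and 52.8 and 56.5 CPM in siBard1. The knockdown libraries were all under the nt libraries, by log2-fold changes of −0.26 (95% confidence interval −0.49 to −0.02, adjusted p = 0.0805), −0.14 (−0.38 to 0.09, adjusted p = 0.300) and −0.12 (−0.36 to 0.11, adjusted p = 0.466). *Rbl1* stood at 21.8 and 21.7 CPM in nt, 13.0 and 16.8 CPM in siWdr5, 16.8 and 17.0 CPM in siBrca1 and 18.6 and 21.7 CPM in siBard1, where replicate 2 lay between the nt libraries. It fell in siWdr5 (−0.56, SE 0.15, adjusted p = 0.0121), a call lost without either nt library or without siWdr5 replicate 1 (adjusted p up to 0.152). In siBrca1 the change of −0.36 did not pass (adjusted p = 0.0644), nor did that of −0.11 in siBard1 (adjusted p = 0.665).

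**Figure D4:**
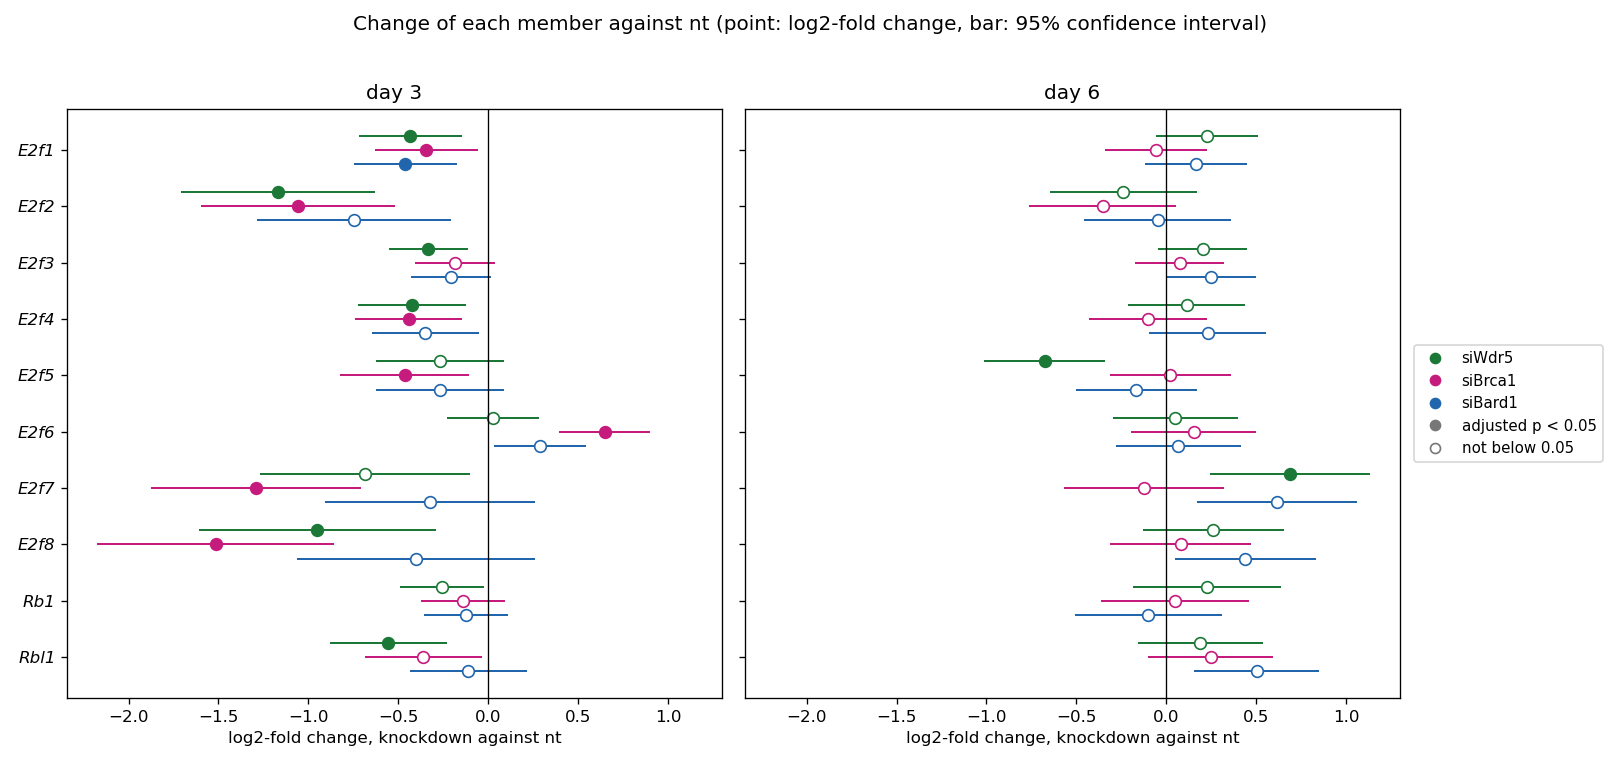
Log2-fold change of each member against nt at day 3 (left) and day 6 (right), with 95% confidence intervals from limma as bars. Filled points have an adjusted p under 0.05 over all genes tested. At day 3 the filled points lie left of 0 except *E2f6* in siBrca1 (0.65), and at day 6 the 2 filled points are *E2f5* (−0.68) and *E2f7* (0.69) in siWdr5.

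Set against each other at day 3, the knockdowns differed in numbers of members that are near the shares of all genes called. Between siBrca1 and siWdr5 the 1 member called was *E2f6*, higher in siBrca1, beside 15.7% of all genes (10.2% higher). *E2f7* (−0.61, adjusted p = 0.145) and *E2f8* (−0.56, adjusted p = 0.232) were not called there, and without siBrca1 replicate 2 their values were 0.03 and 0.13. Between siBrca1 and siBard1 3 members were called, beside 21.4% of all genes: *E2f6* higher (13.1% of all genes higher), and *E2f7* (−0.97, SE 0.27, adjusted p = 0.0232) and *E2f8* (−1.11, SE 0.31, adjusted p = 0.0213) lower (8.33% lower). Without siBrca1 replicate 2 the values of *E2f7* and *E2f8* were −0.33 (adjusted p = 0.146) and −0.42 (adjusted p = 0.127), and none of the 3 calls held without either siBard1 library. Between siWdr5 and siBard1 no member passed the test in limma, beside 8.63% of all genes, and limma-voom on the recovered reads also called 0. An unadjusted p under 0.05 was found for 2 members, *E2f6* (−0.26) and *Rbl1* (−0.45), beside 25.9% of all genes.

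Fewer members were called at day 6. In siWdr5 2 members were called, beside 21.8% of all genes (5.7% lower, 16.1% higher). *E2f5* stood at 17.8 and 17.7 CPM in nt, 11.6 and 10.6 CPM in siWdr5, 17.6 and 18.5 CPM in siBrca1 and 17.2 and 14.5 CPM in siBard1. It was lowest in both siWdr5 libraries, with a log2-fold change of −0.68 (SE 0.15, adjusted p = 0.0140), which was lost without either nt library or without siWdr5 replicate 2 (adjusted p up to 0.120). *E2f7* stood at 9.41 and 14.0 CPM in nt, 19.2 and 17.8 CPM in siWdr5, 9.59 and 11.6 CPM in siBrca1 and 17.7 and 17.6 CPM in siBard1. It was higher in siWdr5 (0.69, SE 0.20, adjusted p = 0.0354), the opposite sign of its uncalled change at day 3, and the call was lost without nt replicate 1 (0.40, adjusted p = 0.240) or without either siWdr5 library. In these libraries the fibroblast markers summed to 5142 to 5368 CPM in nt and to 9250 to 12709 CPM in siWdr5, and their part in the change was not tested. In siBrca1 no member was called and no gene of the table was (0%), no member had an unadjusted p under 0.05 (8.01% of all genes did), and limma-voom called 0 members. The member with the largest change there was *E2f2* (−0.35, 95% confidence interval −0.76 to 0.06). In siBard1 no member was called, beside 0.0784% of all genes. There 13.6% of all genes had an unadjusted p under 0.05 in either direction. Of the members 4 did, all higher than nt: *E2f3* (0.25), *E2f7* (0.62), *E2f8* (0.44) and *Rbl1* (0.50, 17.4 and 17.3 against 13.0 and 11.5 CPM), and limma-voom called 0.

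Whether a knockdown's change at day 6 departed from that at day 3 was tested directly. For siBrca1 it was called for 2 members, both higher, beside 20.5% of all genes (10.3% higher): *E2f8* (1.595, SE 0.42, adjusted p = 0.0150) and *E2f7* (1.17, SE 0.39, adjusted p = 0.0469). Without siBrca1 replicate 2 of day 3 the *E2f8* value was 0.90 and the *E2f7* value 0.53. The *E2f8* call was lost without nt replicate 1 of either day (adjusted p up to 0.0611), and that of *E2f7* without any of 5 libraries. For siWdr5 the 1 member called was *E2f3* (0.53, SE 0.14, adjusted p = 0.0419), beside 4.43% of all genes (3.4% higher), against a median of 0.12 over all genes. This call was lost without any 1 of the 8 libraries and when libraries were centred on their median gene (adjusted p up to 0.157). For siBard1 no member was called, beside 0.0499% of all genes, and limma-voom called 0. There 6 members had an unadjusted p under 0.05, beside 19.2% of all genes. The *E2f6* value for siBrca1, −0.50 (95% confidence interval −0.92 to −0.07), did not pass the test (adjusted p = 0.0887).

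Genes downstream of E2F factors were read from lists chosen with earlier results of these data known. The S phase list holds 32 genes known as E2F targets, from the replication licensing genes to nucleotide synthesis. At day 3, 27 of the 32 fell in siWdr5 (median −0.72), 32 in siBrca1 (median −1.20) and 8 in siBard1 (median −0.47), and none rose, where 16.8%, 21.8% and 5.87% of all genes were lower. Without siBrca1 replicate 2 the median in siBrca1 was −0.87. In siBard1, 20 had an unadjusted p under 0.05, beside 31.3% of all genes, and limma-voom called 12. Among the largest falls in siBrca1 were those of *Mcm10* (−1.61, adjusted p = 0.000215), *Ccna2* for cyclin A (−1.54, adjusted p = 0.000238) and *Mcm5* of the replicative helicase (−1.54, adjusted p = 0.000237). Without siBrca1 replicate 2 these were −1.01, −0.95 and −0.94. Summed over the list, the level was 3120 and 3134 CPM in nt, 1878 and 2048 CPM in siWdr5, 1844 and 1105 CPM in siBrca1 and 2379 and 2293 CPM in siBard1. The sum was highest in nt and lowest in siBrca1 replicate 2, and siBrca1 replicate 1 lay just under the siWdr5 libraries. At day 6 the sums lay between 1884 and 2240 CPM in all 8 libraries, and limma and limma-voom called 0 of the 32 in siBrca1 and in siBard1. An unadjusted p under 0.05 was found for 2 and 3, beside 8.01% and 13.6% of all genes. In siWdr5, 2 were higher and 3 lower at day 6, where 16.1% of all genes were higher and 5.7% lower.

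The 15 genes of G2 and M phase followed. They all fell in siBrca1 (median −1.38, and −0.87 without replicate 2) and 13 fell in siWdr5 (median −0.79), where 21.8% and 16.8% of all genes were lower. None was called in siBard1 by limma or limma-voom (median −0.40). There 6 had an unadjusted p under 0.05, beside 31.3% of all genes. *Bub1b* of the spindle checkpoint (−1.57, adjusted p = 9.73e-05), *Plk1* (−1.56, adjusted p = 0.000524), *Birc5* for survivin (−1.53, adjusted p = 0.000128) and *Aurkb* (−1.47, adjusted p = 0.000399), which encode regulators of mitosis, had the largest falls of the list in siBrca1. Without siBrca1 replicate 2 *Plk1* stood at −0.87 and *Aurkb* at −0.87. All 15 were lower in siBrca1 than in siBard1, and 8 without siBrca1 replicate 2, and of the S phase list 27 were lower, and 12 without it, where 8.33% of all genes were lower. Between the days, 30 of the 32 S phase genes and all 15 G2 and M phase genes had a higher day 6 than day 3 change in siBrca1, and 21 and 13 did without siBrca1 replicate 2 of day 3, where 10.3% of all genes were higher. In nt itself 21 S phase genes fell and 2 rose from day 3 to day 6, and 9 of the G2 and M phase genes fell, where 27.1% of all genes were lower and 19% higher.

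**Figure D5:**
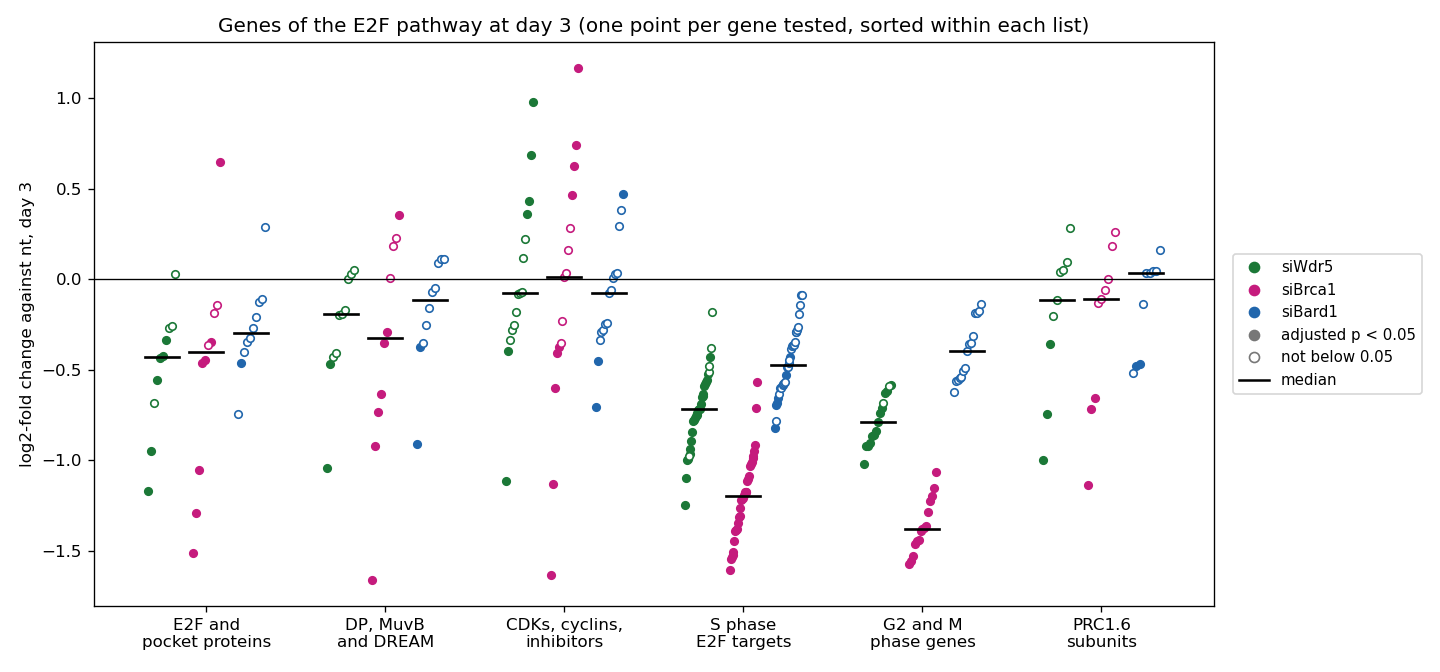
Log2-fold change against nt at day 3 for each tested gene of 6 lists, with 1 column per knockdown, filled points for adjusted p under 0.05 and black lines for medians. All 32 S phase genes are filled and lower in siBrca1 (median −1.20), 27 in siWdr5 and 8 in siBard1, and the list of kinases and inhibitors spreads to both sides of 0.

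Of the 10 partners of E2F factors and pocket proteins, 6 fell and 1 rose in siBrca1, 2 fell in siWdr5 and 2 fell in siBard1 (medians −0.32, −0.19 and −0.11). Of all genes 21.8%, 16.8% and 5.87% were lower, and the siWdr5 count is near that share. *Tfdp1*, the DP partner of most E2F factors, went from 190.2 ± 4.11 CPM in nt to 137 ± 1.73 CPM for siWdr5, 124 ± 20.5 CPM for siBrca1 and 147 ± 5.39 CPM for siBard1 (SD, n = 2). It fell in all 3, by log2-fold changes of −0.47 (adjusted p = 0.00653), −0.63 (adjusted p = 0.000538) and −0.38 (adjusted p = 0.0437). *Mybl2*, itself an E2F target whose product joins MuvB, fell in all 3 as well, by −1.05, −1.67 and −0.91 (adjusted p = 0.000900, 1.76e-05 and 0.00693). In siBrca1, *Mybl2* was at 41.7 CPM in replicate 1 and 24.3 CPM in replicate 2, against 97.2 and 105 CPM in nt. *Foxm1*, a driver of G2 and M phase genes (−0.92, adjusted p = 0.00162), and *Lin9* of MuvB (−0.73, adjusted p = 0.00223) fell in siBrca1, and *Foxm1* was at −0.48 without siBrca1 replicate 2. The call of *Tfdp1* in siBard1 was lost without any 1 of the 4 libraries and that in siWdr5 without nt replicate 1 or siWdr5 replicate 1, and that of *Mybl2* in siBard1 without nt replicate 2 or siBard1 replicate 2. The member of the list that rose was *Rbl2*, for the pocket protein p130 (0.36, adjusted p = 0.0343, and 0.24 with adjusted p = 0.201 without siBrca1 replicate 2, the call being lost also without either nt library), chosen for mention after its value was seen. Without siBrca1 replicate 2, 4 of the list fell and 0 rose (median −0.30 against −0.32).

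Among 15 cyclins, kinases and inhibitors upstream of the pocket proteins the directions were mixed, with 4 higher and 2 lower in siWdr5, 4 higher and 5 lower in siBrca1 and 1 higher and 2 lower in siBard1 (medians −0.08, 0.02 and −0.08). Of all genes 35%, 47.2% and 14.5% were called in either direction. *Ccne2*, for a cyclin E, fell in siBrca1 (−1.64, adjusted p = 0.000129), as did *Cdkn2c*, for the inhibitor p18 (−1.13, adjusted p = 0.00231, and −0.67 without siBrca1 replicate 2). *Cdkn2b*, for the CDK4 and CDK6 inhibitor p15, rose from 44.2 ± 0.0236 CPM in nt to 87.3 ± 2.54 in siWdr5, 99.5 ± 7.57 in siBrca1 and 61.5 ± 6.75 CPM in siBard1 (0.98, 1.17 and 0.47, adjusted p = 3.41e-05, 6.09e-06 and 0.0138). The last of these calls was lost without either nt library or without siBard1 replicate 1 (0.36). *Ccnd2* for cyclin D2 rose in siBrca1 (0.74, adjusted p = 0.000349). Called in another knockdown and not in siBrca1 were *Cdkn1c*, for p57, higher in siWdr5 (0.69, adjusted p = 0.00248) and lower in siBard1 (−0.71, adjusted p = 0.00633), *Cdkn2a*, lower in siWdr5 (−0.40, adjusted p = 0.0401), and *Ccne1*, lower in siBard1 (−0.45, adjusted p = 0.0244). Each of these calls rested on single libraries. *Cdkn1c* was lost without nt replicate 1 in siWdr5 and without nt replicate 2 in siBard1, *Cdkn2a* without nt replicate 2 (−0.22) or either siWdr5 library, and *Ccne1* without either nt library or siBard1 replicate 2.

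Around *E2f6*, 9 subunits of its polycomb complex PRC1.6 were read, with medians of −0.12, −0.11 and 0.03 at day 3 in siWdr5, siBrca1 and siBard1. In siBrca1 3 fell and none rose, *Pcgf6* (−1.14, adjusted p = 0.000128), *L3mbtl2* (−0.72, adjusted p = 0.000741) and *Cbx3* (−0.66, adjusted p = 0.000616), where 21.8% of all genes were lower and 47.2% were called. In siWdr5, where *E2f6* was not called, *Pcgf6* (−0.998, adjusted p = 0.000619), *L3mbtl2* (−0.75, adjusted p = 0.00110) and *Cbx3* (−0.36, adjusted p = 0.0360) fell too, and in siBard1 *L3mbtl2* (−0.47, adjusted p = 0.0364) and *Cbx3* (−0.48, adjusted p = 0.0203). The calls of *Cbx3* in siWdr5 and of both genes in siBard1 were lost without any 1 of the 4 libraries compared. Of 5 germline genes known to be silenced through E2F6, 2 were in the table and 1, *Stag3*, passed the filter. It was not called in any comparison (−0.61 in siBrca1 at day 3, adjusted p = 0.136).

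The tested genes with the most similar log2 CPM over the 16 libraries, up to 3 for each member, were listed, by Pearson's r, as a description, since the libraries share days and groups. *E2f7* was closest to *Clspn* (r = 0.964), *Incenp* (0.964) and *Plk1* (0.957), and *E2f8* to *Nsl1* (0.963), *Mcm5* (0.955) and *Cdca8* (0.955). *E2f6* was closest to *Spata6* (0.967), *Stau2* (0.964) and *Armcx2* (0.952). *Rb1* was closest to *Usp24* (0.983), *Usf3* (0.978) and *Vps13a* (0.973), *Rbl1* to *Gsdme* (0.911), *Ubr7* (0.885) and *Gpalpp1* (0.884). *E2f3* followed *Faxc* (0.981), *Ankrd27* (0.974) and *Plagl2* (0.971), *E2f4* *Phb2* (0.944), *Pelp1* (0.943) and *Tomm40* (0.931), and *E2f5* *Fkbp3* (0.960), *Dcun1d5* (0.951) and *Mtf2* (0.946). *E2f2* was close to 2810025M15Rik (0.937) and *Ahcy* (0.916), and *E2f1*, with the lowest values of the 10, to *Ccdc71* (0.881), *Pex26* (0.872) and *Brms1* (0.870).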

How the data were processed

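Total RNA (200 ng, ribosomal RNA removed with Kapa RNA HyperPrep with RiboErase) was sequenced paired-end from the 16 cultures. Per the labels and the study's methods, the authors aligned reads with STAR 2.5.2b to mm10 and deposited log2 CPM values made with edgeR 3.20.9; the read counter, gene annotation and use of strand are not given in the sources used here. The deposited log2 values include a prior of 1.57 to 3.57 reads per gene, and CPM here means 2 raised to the deposited value, prior included. Whole reads could be recovered for 100% of values below 5000 reads (tolerance 0.01), which gave the depths of 11169738 to 26832534 reads per library. The exceptions to the meaning of CPM given above are the CPM per kb values and the CPM of 3 reads. These were computed from reads without the prior.

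Here, the 14028 of 18990 genes whose mean log2 CPM reached 0 were tested with limma 3.58.1 (R 4.3.3), with a trended prior variance, two-sided. A model of the 8 libraries of a day was used for contrasts within that day, and a model of all 16 libraries for the nt course and for the difference of changes between days. P-values were Benjamini-Hochberg adjusted over all genes tested, and a gene was called at an adjusted p under 0.05. Means are given with SD over 2 libraries. Replicates were independent experiments per the study's methods. With 2 libraries per group precision is limited, and 3 reads correspond to 0.115 to 0.260 CPM. Intervals are 95% limits from limma, and the floor of 3 reads covers counting error only. Tables were prepared with Python 3.11.15, and fits were tested on simulated data.

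The members and gene lists were chosen with earlier results of these data known, so list counts and medians are descriptions. For lists, the named genes are those called in siBrca1 at day 3 with the largest change, up to 4 per list, and any gene called in another knockdown at day 3 and not there. Likeness was Pearson's r of log2 CPM, with the 3 closest genes taken for each member. Some genes that these rules name are not reported here. Promoter windows came from RefSeq and gene positions from GENCODE vM21. Alternatives were another filter, prior, centring and variance setting, limma-voom on recovered reads, a replicate block, all 16 libraries in the day fits, a fold threshold and leaving out each library; the counts of list genes without siBrca1 replicate 2 of day 3 and by limma-voom, and the named list genes with each library left out, were added after seeing the data.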

Additional observations from a re-analysis of the deposited data

Results flagged for a closer look

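In 3 cases a member had a knockdown effect that differed between the days by the interaction test in limma. For *E2f8* the siBrca1 change was 1.595 higher on the log2 scale at day 6 than at day 3 (adjusted p = 0.0150). For *E2f7* it was 1.17 higher (adjusted p = 0.0469). For *E2f3* the siWdr5 change was 0.53 higher at day 6 than at day 3 (adjusted p = 0.0419). With 2 libraries per group, no library could be tested for standing apart from its group.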

How the results depend on the processing

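No change of a member that passed the test turned its direction in any alternative run. Counts of members called moved as follows. For siWdr5 at day 3 the count of 6 was 2 without a variance trend, 1 with a log2-fold change past 1, and 0 to 2 when 1 library was left out. For siBrca1 at day 3 the count of 7 was 3 past 1 and 4 to 7 with a library left out, 4 of them without siBrca1 replicate 2. For siBard1 at day 3 the count of 1 was 0 without the filter, 0 without a trend and 0 past 1, 2 with 1 CPM added, 2 with limma-voom, 2 with all 16 libraries, and 0 to 0 with a library left out. For siWdr5 at day 6 the count of 2 was 1 after centring, 1 without a trend, 1 with all 16 libraries, 0 past 1 and 0 to 1 with a library left out. For siBrca1 and siBard1 at day 6 it was 0 to 0. For the nt course the count of 7 was 3 past 1 and 5 to 6 with a library left out. For the day difference in siWdr5 the count of 1 was 0 without the filter, after centring, without a trend and past 1, 3 with the filter raised to 2 on the log2 scale, 3 with limma-voom, and 0 to 0 with a library left out. For that in siBrca1 the count of 2 was 1 without the filter, 1 without a trend and 0 to 4 with a library left out. Between siBrca1 and siWdr5 the count of 1 was 0 past 1 and 0 to 3 with a library left out. Between siBrca1 and siBard1 the count of 3 was 0 without the filter, 0 without a trend, 1 past 1 and 0 to 3 with a library left out. The cause was not tested. A group left with 1 library was assumed to vary like the other groups.

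Same-numbered libraries deviated together little at day 3 (mean r 0.0197, from −0.0931 to 0.0721, over 6 pairs of groups). At day 6 they did so weakly in some of the 6 pairs (mean r 0.108, from −0.0696 to 0.260). The numbers were not taken as pairs in the main fits, but these values do not exclude a pairing. With the replicate block 7, 7 and 2 members were called at day 3 in siWdr5, siBrca1 and siBard1, 2, 0 and 0 at day 6, 7 in the nt course, and 2, 2 and 0 for the day differences.

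Over all genes, the count for siBard1 at day 3 was 2039 and went to 881 without the filter and 705 without a trend, and that for siWdr5 at day 6 from 3060 to 1848 without a trend. The siWdr5 day difference went from 622 to 325 after centring and 21 without a trend, and siBrca1 against siBard1 from 3008 to 1520 without the filter and 67 without a trend. With the block, siBard1 at day 6 went from 11 to 48 and its day difference from 7 to 93. With a change past 1 the day 3 counts were 989, 1878 and 314 in siWdr5, siBrca1 and siBard1.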
